A study of Homo sapiens with 4 samples.

Results

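The genes described here were 10 integrin subunits of leukemia cell adhesion: the alpha chains ITGA4, ITGA5, ITGA6, ITGAL, ITGAM, ITGAV and ITGAX, and the beta chains ITGB1, ITGB2 and ITGB5. They were chosen by gene name, with earlier results of these data known. Each had a row in the deposited table, so the set was 10 of 28412 genes. RNA-seq was performed on 4 libraries of human leukemia cells labelled NB4, a promyelocytic line. The 2 control libraries carried sh-NC and the genotype control, and the 2 knockdown libraries carried sh-LDB1 and the genotype LDB1 knockdown. Knockdown in the study used the lentiviral vector Plko.1 with puromycin selection, and the titles name sh-NC for the controls, although their source is labelled as untreated. Of the 3 shRNAs that the study designed for human LDB1, the one in these cells was not stated. Whether the replicates came from separate cultures was not stated, so the p-values measure the spread between these libraries, which may be technical. LDB1 is the adaptor protein that joins LIM-domain proteins such as LMO2 to DNA-bound transcription factors, and the comparison asks which integrin transcripts differed when its level was low.

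An integrin is a receptor made of 1 alpha and 1 beta chain, and both chains are needed for it to reach the cell surface. The pair decides the ligand. ITGB1 pairs with ITGA4, ITGA5, ITGA6 and ITGAV, and ITGA5 with ITGB1 is the classical fibronectin receptor. ITGAV also pairs with ITGB5 to bind vitronectin. ITGB2 is the beta chain of leukocytes, which pairs with ITGAL (LFA-1), ITGAM (Mac-1, CD11b) and ITGAX (CD11c), the last 2 being surface markers of granulocytes, monocytes and dendritic cells. In leukemia, integrins hold blasts to the bone marrow stroma and its matrix.

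The knocked-down gene and the cell markers were examined first. LDB1 was 135.1 and 120.1 FPKM in sh-NC (fragments per kilobase of gene, scaled to library depth) and 10.2 and 9.47 FPKM in sh-LDB1, a log2 fold change of -3.56 ± 0.0765 (SE; limma, adjusted p = 6.93e-05). The FPKM corresponded to library depths of 14.7 to 16.2 M reads, and across genes the replicates correlated at 0.985 in sh-NC and 0.984 in sh-LDB1. Markers of the labelled cell type were few or low in sh-NC. The promyelocytic elastase ELANE had 0 FPKM in 3 libraries but 0.182 FPKM in the first sh-LDB1 replicate, and ANPEP stayed under 0.12 FPKM. LYZ and PRTN3, granule genes of the same list, were present and higher in sh-LDB1, with LYZ (lysozyme) at 5.85 and 5.61 against 19.3 and 19.1 FPKM and PRTN3 (proteinase) at 1.29 and 1.18 against 5.50 and 4.50 FPKM. These were the 2 of 5 tested markers called higher. AZU1 (1.94 and 1.67 against 4.83 and 3.93 FPKM) and CD33 (0.910 and 0.840 against 1.22 and 1.45 FPKM) were higher without being called. CEBPE went the other way, at 1.55 and 1.27 against 0.924 and 0.340 FPKM, and was not called. The 7 of 9 listed markers with a value summed to 10.7 to 11.6 FPKM in sh-NC against 29.4 to 32.0 FPKM in sh-LDB1. In contrast, 12 of 12 erythroid markers were present, led by the embryonic globin HBZ, and summed to 3973 to 4140 FPKM in sh-NC against 352 to 388 FPKM in sh-LDB1, with 11 of the 11 tested lower. These values go against a purely promyelocytic population, so the libraries are called only by their vector. The 5 of 7 monocyte and macrophage markers with a value were all under 0.5 FPKM in every library, and summed to 0.264 to 0.365 FPKM in sh-NC against 0.768 to 0.842 FPKM in sh-LDB1. Megakaryocyte markers (5 of 7) summed to 7.59 to 7.93 and then 3.31 to 3.62 FPKM, with PF4 and PPBP under 0.5 FPKM. The fall of this sum came from TUBB1, with means of 5.69 and then 0.332 FPKM. GP6 and GP1BA went the other way, from means of 0.875 and 1.10 FPKM to 1.55 and 1.31 FPKM. T cell markers (3 of 5) summed to 21.4 to 24.5 and then 47.2 to 50.4 FPKM, nearly all of it CD3D. B cell markers (3 of 4) summed to 0.748 to 1.25 and then 1.49 to 2.15 FPKM, and stromal markers (5 of 6) to 0.136 to 0.307 and then 2.35 to 2.61 FPKM. The part of these shifts in the integrin results was not tested. In bulk RNA, fewer cells of a type and less RNA per cell cannot be told apart.

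Integrin transcripts were mostly higher after LDB1 knockdown. ITGA5, already abundant, rose 2.78-fold, while ITGAM and ITGAX went from at most 9 to at least 425 reads per library. ITGB1 and ITGAV were about 1.4 times their control level, and ITGB5 was the only member with both knockdown values below both controls. ITGB2, the beta partner of ITGAM and ITGAX, stayed under 1 FPKM in all 4 libraries. A gene was tested where its mean over the libraries was at least 1 FPKM, and was called where limma gave a Benjamini-Hochberg adjusted p under 0.05 and a fold above 2 or under 0.5 on the log2(FPKM + 1) scale. Of the 10 members, 6 were tested and 3 of these were called higher (ITGA5, ITGAM, ITGAX) and 0 lower, beside 9.50% of 13300 tested genes called higher and 10.3% called lower. ITGAM and ITGAX passed the filter only through sh-LDB1 and so had to differ. The members were also chosen with earlier results of these data known. The counts and medians of this paragraph are therefore a description. On the adjusted p alone, as on the unadjusted p, 5 of the 6 were higher and 1 was lower, where on the adjusted p 29.9% and 37.4% of all tested genes were. The median log2 fold change was 0.96 over the 6 and 0.45 over the 4 without ITGAM and ITGAX, and it was -0.08 over all tested genes. The sh-NC and sh-LDB1 values did not overlap for 9 of the 10 members, 8 with sh-LDB1 higher and ITGB5 with sh-LDB1 lower, beside 35.7% and 30.0% of all genes in the table. Among the 13300 genes ordered from the largest rise to the largest fall, ITGAX stood at place 52, ITGAM at 81 and ITGA5 at 565.

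**Figure D1:**
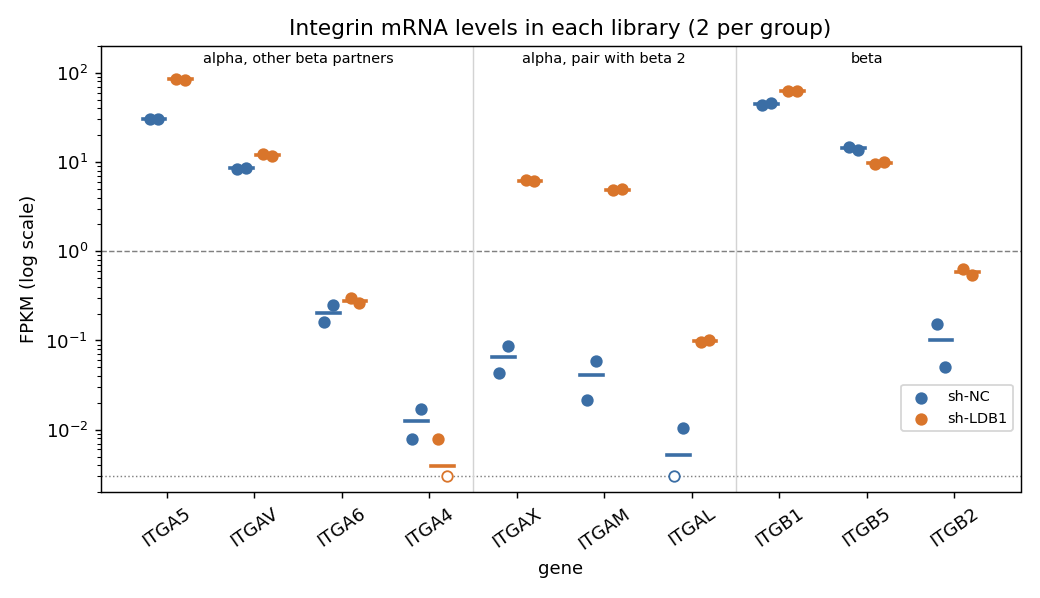
Level of each of the 10 integrin members in FPKM on a log axis, 1 point per library, with sh-NC and sh-LDB1 side by side. Short horizontal lines are group means, the dashed line marks 1 FPKM, the mean needed for a test, and open circles on the dotted line are values listed at 0. ITGA5 moved from 30.5 to above 83 FPKM, ITGAM and ITGAX crossed the dashed line in sh-LDB1 only, and ITGB2 stayed below it in all 4 libraries.

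Results for the fibronectin receptor chains were as follows. ITGA5 (ENSG00000161638) is a minus-strand gene of chromosome 12 at positions 54395261 to 54419266 (GRCh38, GENCODE release 44, as for the positions of the other genes). Its level was 30.5 and 30.5 FPKM in sh-NC against 86.1 and 83.5 FPKM in sh-LDB1. Both knockdown libraries were well above both controls, and the control replicates were nearly equal. The mean went from 30.5 ± 0.0266 to 84.8 ± 1.79 FPKM (SD, n = 2 each), with a log2 fold change of 1.45 ± 0.0401 (SE; limma, adjusted p = 8.31e-05). These values correspond to 3739 and 3403 reads in sh-NC against 10448 and 9577 reads in sh-LDB1.

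ITGB1 (ENSG00000150093), the beta chain shared by most matrix-binding integrins, is a minus-strand gene of chromosome 10 at positions 32887273 to 33005792. Its level was 44.1 and 46.1 FPKM in sh-NC against 63.1 and 62.3 FPKM in sh-LDB1. The groups did not overlap, but their distance was smaller than for ITGA5. The mean was 45.1 ± 1.40 and 62.7 ± 0.558 FPKM (SD, n = 2 each), and the log2 fold change of 0.47 ± 0.0432 (SE; limma, adjusted p = 0.000967) did not reach the fold threshold. Reads of ITGB1 can be shared with its processed pseudogene ITGB1P1, so its level is uncertain. That pseudogene, listed under the clone name AC022149.1, was 20.2 and 15.1 FPKM in sh-NC against 31.2 and 29.5 FPKM in sh-LDB1, which is the same direction (log2 fold change 0.76; limma, adjusted p = 0.00851).

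The vitronectin receptor chains changed in opposite directions. ITGAV (ENSG00000138448), on the plus strand of chromosome 2 from 186590010 to 186680901, was 8.44 and 8.57 FPKM in sh-NC against 12.2 and 11.6 FPKM in sh-LDB1. All knockdown values lay above all controls. The mean went from 8.50 ± 0.0962 to 11.9 ± 0.443 FPKM (SD, n = 2 each), a log2 fold change of 0.44 ± 0.0534 (SE; limma, adjusted p = 0.00221) that did not reach the fold threshold. ITGB5 (ENSG00000082781), a minus-strand gene of chromosome 3 at 124761948 to 124901418, was 14.7 and 13.8 FPKM in sh-NC against 9.57 and 9.92 FPKM in sh-LDB1. It was the only member with both knockdown values below both controls. Its mean went from 14.3 ± 0.673 to 9.74 ± 0.253 FPKM (SD, n = 2 each), with a log2 fold change of -0.51 ± 0.0572 (SE; limma, adjusted p = 0.00176), which did not reach the fold threshold either.

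The alpha chains of the leukocyte integrins showed the largest relative differences among the members. ITGAM (ENSG00000169896), the alpha chain of the complement receptor Mac-1, lies on the plus strand of chromosome 16, from 31259967 to 31332892. Its level was 0.0217 and 0.0596 FPKM in sh-NC against 4.89 and 4.94 FPKM in sh-LDB1. The control libraries held 2 and 5 reads of ITGAM, and the knockdown libraries held 446 and 425. Scaled to depth, sh-LDB1 had 123.5 times the reads of sh-NC, with an exact 95% interval of 59.7 to 308.2 that covers counting error only. The log2 fold change on the log2(FPKM + 1) scale, which understates changes of low genes, was 2.51 ± 0.110 (SE; limma, adjusted p = 0.000154).

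ITGAX (ENSG00000140678), which encodes CD11c, lies beside ITGAM on the same strand of chromosome 16, from 31355134 to 31382999. Its level was 0.0437 and 0.0863 FPKM in sh-NC against 6.22 and 6.11 FPKM in sh-LDB1. The control libraries held 5 and 9 reads, and the knockdown libraries held 705 and 654. The depth-scaled ratio of reads was 96.4, with an exact 95% interval of 57.2 to 176.8 for counting error only, and the log2 fold change was 2.75 ± 0.101 (SE; limma, adjusted p = 0.000117). ITGAD, the close paralog next to ITGAX that could share reads with it, held 0 and 1 reads in sh-NC against 4 and 3 reads in sh-LDB1. Beside these rises, the monocyte and macrophage markers stayed under 0.5 FPKM but did not all stay level. CSF1R was 0.0600 and 0.0263 FPKM in sh-NC against 0.315 and 0.321 FPKM in sh-LDB1, CD14 was 0.164 and 0.108 against 0.331 and 0.3504 FPKM, and CD68 was 0.141 and 0.0620 against 0 and 0 FPKM. Of the granule genes, LYZ and PRTN3 were called higher, while CEBPE of the same promyelocytic list was below control. The part of these shifts in the ITGAM and ITGAX values was not tested.

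The promoters of the called members are shown because their rises started from different levels. RefSeq (GRCh38.p14) gave windows of 300 bases, 250 before and 50 after the start site, for 7 of the 10 members. ITGAX, ITGAL and ITGB2 had no entry. Capitals mark 4 motifs searched on both strands. GAGGAA, in capitals on either strand, is a core bound by the ETS factor PU.1, TGTGGT by RUNX factors, GATAA by GATA factors, and CANNTG is the E-box bound by basic helix-loop-helix proteins such as TAL1, a partner in the LDB1 complex.
ITGAM, chr16:31259725-31260024, plus strand: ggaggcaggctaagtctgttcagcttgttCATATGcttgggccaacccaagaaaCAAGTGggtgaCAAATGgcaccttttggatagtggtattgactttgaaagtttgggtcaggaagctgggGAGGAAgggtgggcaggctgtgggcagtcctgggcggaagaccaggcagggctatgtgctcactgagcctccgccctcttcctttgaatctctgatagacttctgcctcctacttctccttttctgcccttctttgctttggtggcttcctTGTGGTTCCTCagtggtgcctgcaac
ITGA5, chr12:54419217-54419516, minus strand: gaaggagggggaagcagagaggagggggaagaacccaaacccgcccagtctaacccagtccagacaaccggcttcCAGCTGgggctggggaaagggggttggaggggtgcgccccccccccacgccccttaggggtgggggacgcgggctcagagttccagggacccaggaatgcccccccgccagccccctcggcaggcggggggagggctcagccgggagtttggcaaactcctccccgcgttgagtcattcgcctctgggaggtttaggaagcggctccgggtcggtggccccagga
With positions counted from the start site, the ITGAM window held GAGGAA at -127 and, as the reverse strand match TTCCTC, at 30, overlapping TGTGGT at 25. It also held 3 matches of CANNTG and 0 of GATAA. The ITGA5 window held a single CANNTG match (CAGCTG at -175) and 0 of the other 3 motifs. Of 35116 promoter windows of the same length, 27.9% held GAGGAA, 13.1% TGTGGT, 22.7% GATAA and 68.7% CANNTG. These matches are a description of the sequence, and binding at them was not tested here.

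The remaining 4 members stayed under a mean of 1 FPKM and were not tested with the others. ITGB2 (ENSG00000160255), the beta chain that ITGAL, ITGAM and ITGAX need, is a minus-strand gene of chromosome 21 at positions 44885953 to 44931989. Its level was 0.155 and 0.0499 FPKM in sh-NC against 0.624 and 0.544 FPKM in sh-LDB1, from 17 and 5 and then 68 and 56 reads. Both knockdown libraries were above both controls, and the depth-scaled ratio of reads was 5.60 (exact 95% interval 3.54 to 9.25, counting error only). In a limma fit with no filter on low values, the log2 fold change was 0.52 ± 0.0877 (SE; adjusted p = 0.0210), which did not reach the fold threshold. The antisense gene ITGB2-AS1 was 0.228 and 0.167 FPKM in sh-NC against 0.256 and 0.461 FPKM in sh-LDB1, and since the use of strand in counting was not stated, reads of the overlapping parts may not have been told apart.

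ITGAL (ENSG00000005844), the alpha chain of LFA-1, lies on the plus strand of chromosome 16, from 30472658 to 30523567. Its values were 0 and 0.0105 FPKM in sh-NC against 0.0964 and 0.102 FPKM in sh-LDB1. Depending on the gene length used by the authors, this was 0 and 1 or 0 and 2 reads in sh-NC against 10 or 20 reads in each sh-LDB1 library. The ratio of reads was 19.9, with an exact 95% interval of 5.15 to 169.6 on the larger reads and 3.18 to 823 on the smaller. In the limma fit without the filter, the unadjusted p was 0.0175 and the adjusted p was 0.0507, so ITGAL did not pass after adjustment.

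ITGA6 (ENSG00000091409), the laminin receptor chain, on the plus strand of chromosome 2 from 172427354 to 172506459, was 0.161 and 0.249 FPKM in sh-NC against 0.296 and 0.263 FPKM in sh-LDB1. The 17 and 24 control reads and the 31 and 26 knockdown reads gave a ratio of 1.38 with an exact 95% interval of 0.908 to 2.11, so a difference was not detectable at this depth. ITGA4 (ENSG00000115232), the alpha chain of VLA-4 that binds VCAM1 on stroma, on the plus strand of chromosome 2 from 181457202 to 181538940, was 0.00782 and 0.0172 FPKM in sh-NC against 0.00790 and 0 FPKM in sh-LDB1. Its 1 and 2 control reads and 1 and 0 knockdown reads were all under the floor of 3 reads per library, so no fold is given. It was the only member whose groups overlapped. Without the filter, the limma adjusted p was 0.408 for ITGA6 and 0.766 for ITGA4.

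The order of the levels differed between the groups. FPKM are per length, so levels were set side by side between genes. The order thus depends on the gene lengths used in counting, which were not stated. In sh-NC, ITGB1 was the most abundant, followed by ITGA5, ITGB5, ITGAV and ITGA6, then by ITGB2, ITGAX and ITGAM, and last by ITGA4 and ITGAL. The sh-NC values of ITGB2 and ITGAX overlapped, as did those of ITGAX and ITGAM and those of ITGA4 and ITGAL, so their order was not set. In sh-LDB1 the order was ITGA5, ITGB1, ITGAV, ITGB5, ITGAX, ITGAM, ITGB2, ITGA6, ITGAL and ITGA4, with no overlap between neighbours. In FPKM, ITGAV thus passed ITGB5, and ITGA5 passed ITGB1 as far as the uncertain level of ITGB1 allows. Both crossings depend on the gene lengths.

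The make-up of the integrin transcripts was then given as the share of each chain in the summed FPKM of all alpha or all beta chains with a value. These shares depend on the gene lengths used in counting, and the beta shares also on the uncertain level of ITGB1. The alpha chains summed to 43.4 ± 0.0376 FPKM in sh-NC against 113.0 ± 2.52 FPKM in sh-LDB1 (SD, n = 2 each). ITGA5 took 70.2% and 70.2% of this in sh-NC against 75.0% and 75.1% in sh-LDB1. The share of ITGAV was lower in sh-LDB1, at 19.4% and 19.8% in sh-NC against 10.6% and 10.4%, although its own level was higher. ITGAM and ITGAX together went from 0.151% and 0.336% to 9.68% and 9.93% of the alpha transcripts, close to the share of ITGAV. The beta chains summed to 62.8 ± 1.16 FPKM in sh-NC against 75.5 ± 0.566 FPKM in sh-LDB1 (SD, n = 2 each). ITGB1 took 71.1% and 72.4% of these in sh-NC against 83.1% and 82.9% in sh-LDB1, while ITGB5 went from 23.8% and 21.7% to 12.6% and 13.2%. ITGB2 took 0.249% and 0.0784% of the beta transcripts in sh-NC against 0.823% and 0.725% in sh-LDB1. With 2 libraries against 2, the smallest two-sided p of an exact permutation test is 0.333, so these shares were not tested.

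**Figure D2:**
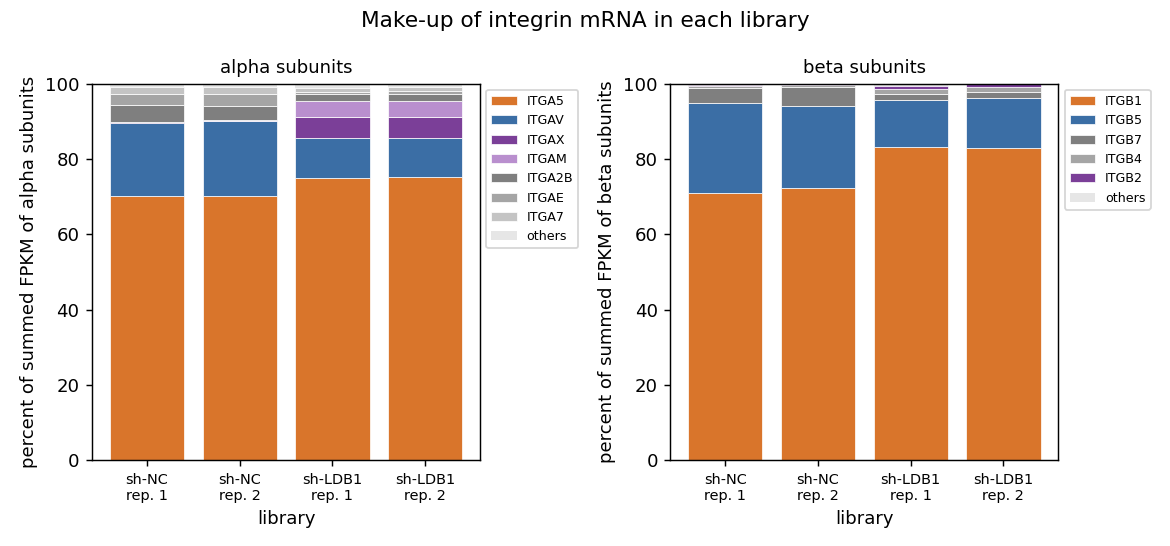
Share of each chain, in percent of the summed FPKM of all alpha chains (one panel) and of all beta chains (the other panel), as stacked bars with 1 bar per library. ITGAM and ITGAX together grew from under 0.4% to above 9% of alpha transcripts in sh-LDB1, while ITGB2 stayed under 1% of beta transcripts. The shares depend on the gene lengths used in counting.

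Ratios between partner chains within a library do not depend on the scaling of the libraries. The ratio of ITGA5 to ITGB1 FPKM was 0.692 and 0.661 in sh-NC against 1.36 and 1.34 in sh-LDB1. By these values the ratio lay below 1 in the controls and above 1 after knockdown, with the limit that the level of ITGB1 is uncertain through its pseudogene. The crossing of 1 also depends on the gene lengths. By reads, ITGB1 stayed above ITGA5 in sh-LDB1, at 12148 and 11330 against 10448 and 9577. The lengths behind these reads were 12022 bases for ITGB1 and 7577 bases for ITGA5. A longer gene collects more reads at the same level, so reads do not set the order of levels. ITGAV to ITGB5 went from 0.572 and 0.622 to 1.28 and 1.17, which turned in the same way. By reads, ITGAV was already above ITGB5 in sh-NC, at 2242 and 2076 against 1538 and 1311, with lengths of 16422 bases for ITGAV and 6447 bases for ITGB5. ITGB1 to ITGB5 went from 2.99 and 3.34 to 6.59 and 6.28. The alpha chains that pair with ITGB2 (ITGAL, ITGAM, ITGAX and ITGAD) summed to 0.0654 and 0.172 FPKM in sh-NC against to 11.3 and 11.2 FPKM in sh-LDB1. Their ratio to ITGB2 was 0.423 and 3.44 in sh-NC, where both sides rest on few reads, and 18.0 and 20.6 in sh-LDB1. The transcript of the partner chain was thus far below that of its alpha chains in both knockdown libraries. These are transcript levels, and the chains on the cell surface were not measured here.

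**Figure D3:**
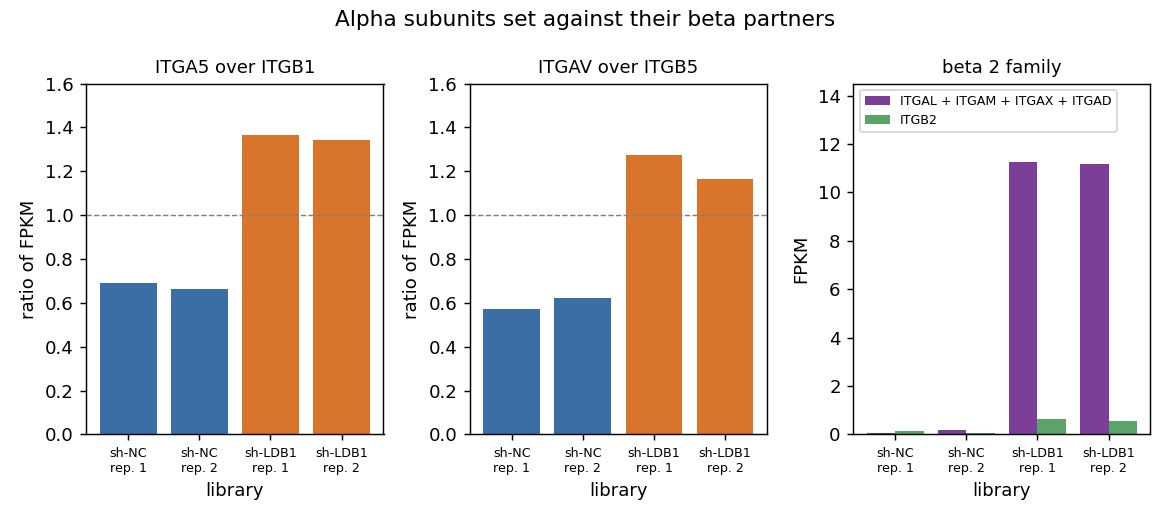
Bars give, for each library, the ratio of ITGA5 to ITGB1 FPKM and of ITGAV to ITGB5 FPKM, with a dashed line at 1, and the FPKM of ITGB2 beside the summed FPKM of its alpha partners ITGAL, ITGAM, ITGAX and ITGAD. Both ratios lie below 1 in both sh-NC libraries and above 1 in both sh-LDB1 libraries, and in sh-LDB1 the alpha sum reached 11.3 and 11.2 FPKM with ITGB2 at 0.624 and 0.544 FPKM.

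Of the other 16 integrin subunits, 13 had a value and 4 were tested, of which 0 were called in either direction by limma. At an adjusted or an unadjusted p under 0.05 with no fold threshold, 0 were higher and 2 lower, and the median log2 fold change was -0.16. ITGB7, the beta partner of ITGA4 and ITGAE in lymphocyte homing, was 2.45 and 3.25 FPKM in sh-NC against 1.11 and 1.22 FPKM in sh-LDB1 (log2 fold change -0.82 ± 0.141, SE; limma, adjusted p = 0.00662). ITGAE, its partner on mucosal lymphocytes, was 1.26 and 1.44 and then 0.713 and 0.715 FPKM (log2 fold change -0.45; limma, adjusted p = 0.0399). The groups did not overlap for either, so both chains of this receptor were below control. ITGAE reached the filter only because of its sh-NC values and so had to differ, which makes its adjusted p a description. The megakaryocyte chain ITGA2B was 2.01 and 1.59 and then 2.08 and 2.07 FPKM, and the laminin-binding chain ITGA7 was 0.814 and 0.787 and then 1.25 and 1.22 FPKM. Neither passed the limma test (adjusted p = 0.351 and 0.0977). ITGA7 in turn reached the filter only because of its sh-LDB1 values. The counts and the median of the tested genes of this list are therefore a description. ITGB4, the partner of ITGA6 in laminin binding, stayed under the filter at 0.393 and 0.371 FPKM in sh-NC against 1.06 and 1.03 FPKM in sh-LDB1. Counting the 9 subunits under the filter as well, 9 of the 13 had groups without overlap, 7 with sh-LDB1 higher and 2 lower. Of all genes in the table, 35.7% were higher and 30.0% lower without overlap. ITGA3, another laminin-binding chain, named after its values were seen, was 0 and 0 FPKM in sh-NC against 0.548 and 0.458 FPKM in sh-LDB1. This was 0 reads in each sh-NC library, and 86 and 68 or 43 and 34 reads in sh-LDB1, depending on the gene length.

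The genes that act with integrins were described by 5 further lists, also chosen with earlier results of these data known. To set beside their counts, 9.50% of the 13300 tested genes were called higher and 10.3% lower. On the adjusted p alone, 29.9% were higher and 37.4% lower. Integrin activation genes act on the tails of the chains and switch them to the ligand-binding form. Of 19 listed, 12 were tested, 1 was called higher and 0 lower by limma, with a median log2 fold change of -0.03. With no fold threshold, 5 were higher and 3 lower, on the adjusted and on the unadjusted p. The called gene was RASSF5 (RAPL), an effector of RAP1 that binds the tail of ITGAL. It was 8.65 and 8.49 FPKM in sh-NC against 26.7 and 25.6 FPKM in sh-LDB1 (log2 fold change 1.50 ± 0.0487, SE; limma, adjusted p = 0.000102). TLN1 (talin), FERMT3 (the kindlin of blood cells) and FLNA (filamin), which bind the beta tails directly, were picked after their values were seen. TLN1 was 72.4 and 73.1 and then 70.8 and 68.3 FPKM (limma, adjusted p = 0.223), and FERMT3 was 92.4 and 81.9 and then 78.9 and 80.6 FPKM (limma, adjusted p = 0.174). FLNA was lower, at 81.3 and 78.0 and then 64.0 and 64.1 FPKM (log2 fold change -0.31; limma, adjusted p = 0.00317), without reaching the fold threshold.

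Adhesion complex genes gather at bound integrins and link them to actin and kinases. Of 32 listed, 22 were tested, 2 were called higher and 1 lower, with a median of 0.13, and 10 were higher and 8 lower on the adjusted p alone. RSU1, which binds the adaptor LIMS1, went from 9.58 ± 0.520 to 20.4 ± 0.587 FPKM (SD, n = 2 each). VASP, an actin elongation factor, was 36.7 and 33.4 and then 70.3 and 73.4 FPKM. Both had a log2 fold change of 1.02 (limma, adjusted p = 0.000270 and 0.000303), just past the fold threshold. Without sh-LDB1 replicate 2, 0 genes of this list were called higher, and without either sh-NC library 1 was. PARVB, the parvin that binds integrin-linked kinase, fell from 6.54 and 6.14 to 2.18 and 2.45 FPKM (log2 fold change -1.15; limma, adjusted p = 0.000448).

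Cell-surface ligands are the counter-receptors that integrins of a neighbouring cell bind. Of 12 listed, 4 were tested, 1 was called higher and 1 lower, with a median of -0.54, and 1 was higher and 2 lower on the adjusted p alone. ICAM1, a ligand of LFA-1 and Mac-1, was 9.07 and 9.31 FPKM in sh-NC against 35.7 and 35.3 FPKM in sh-LDB1 (log2 fold change 1.84 ± 0.0441, SE; limma, adjusted p = 7.35e-05). ICAM2, another ligand of LFA-1, was 4.25 and 4.22 and then 1.27 and 0.876 FPKM (log2 fold change -1.34 ± 0.126, SE; limma, adjusted p = 0.000998). ICAM1 and ICAM2 thus moved in opposite directions. ICAM5 and F11R are named to complete the tested genes of this list. ICAM5 was lower, at 42.2 and 41.8 and then 20.6 and 21.4 FPKM (log2 fold change -0.97; limma, adjusted p = 0.000154), without reaching the fold threshold. F11R did not pass the limma test (adjusted p = 0.0820).

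Matrix ligands are the secreted proteins to which the matrix-binding integrins attach. Of 29 listed, 7 were tested, 2 were called higher and 0 lower by limma, with a median of 0.42. With no fold threshold, 4 were higher and 0 lower on the adjusted p, and 5 and 1 on the unadjusted p. FN1, fibronectin, was 0.471 and 0.501 FPKM in sh-NC against 5.19 and 4.81 FPKM in sh-LDB1 (log2 fold change 2.01; limma, adjusted p = 0.000184). VTN, vitronectin, was 0.204 and 0.168 and then 3.93 and 3.43 FPKM (log2 fold change 1.98; limma, adjusted p = 0.000350). Both passed the filter only through sh-LDB1 and so had to differ. LAMB2 and CYR61, named for this reason, also had sh-NC means under 1 FPKM. Their means were 0.668 and 0.781 FPKM in sh-NC against 2.15 and 1.39 FPKM in sh-LDB1. The list median is the value of CYR61, so the median and counts of this list are a description. Beside them, the stromal markers COL1A1 and COL3A1 were under 0.11 FPKM in sh-NC against 1.06 and 1.18 FPKM and 0.761 and 0.592 FPKM in sh-LDB1, and their part in the rise of the matrix ligands was not tested.

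Membrane partners are tetraspanins and other proteins that bind integrins within the membrane. Of 13 listed, 11 were tested, 4 were called higher and 0 lower by limma, with a median of 0.47. With no fold threshold, 6 were higher and 2 lower, on the adjusted and on the unadjusted p. CD53, a tetraspanin of leukocytes, was 34.3 and 36.1 FPKM in sh-NC against 123.3 and 130.6 FPKM in sh-LDB1 (log2 fold change 1.82; limma, adjusted p = 8.31e-05). PLAUR, the urokinase receptor that associates with ITGB1 and ITGB2 integrins, was 3.38 and 2.91 and then 13.3 and 13.4 FPKM (log2 fold change 1.80; limma, adjusted p = 0.000152). The other 2 were the tetraspanins CD37 and CD63, named because they complete the count, with log2 fold changes of 1.43 and 1.25.

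**Figure D4:**
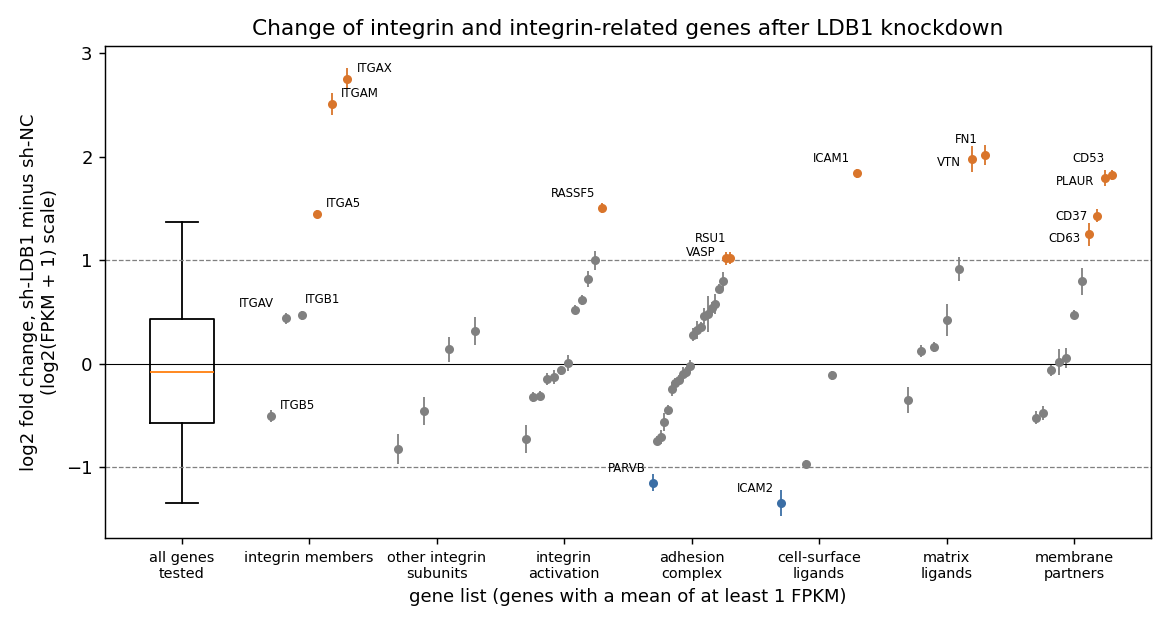
The log2 fold change of sh-LDB1 against sh-NC on the log2(FPKM + 1) scale for tested genes of each list, 1 point per gene with its standard error from limma. The box for all 13300 tested genes shows the quartiles with whiskers at the 5th and 95th percentiles, dashed lines mark the fold threshold, and called genes are coloured and named. ITGAX, ITGAM and ITGA5 lie above the upper line, at 2.75, 2.51 and 1.45, while ITGB1, ITGAV and ITGB5 lie between the lines.

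Since the sum of FPKM was lower in sh-LDB1, directions were checked against 2 other scalings. Scaling each library to the same summed FPKM shifted the median of all genes by 0.14 (log2), and lowered the share of lower genes among all calls from 52.0% to 37.9%. A median of ratios gave 43.7%. No tested member changed direction or side of the threshold under either scaling, and ITGB5, the tested member that is lower, remained lower at -0.35 and -0.41.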

How the data were processed

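RNA-seq was measured in 4 libraries, 2 sh-NC and 2 sh-LDB1, and groups were taken from the sample titles. Total RNA was extracted with Trizol and prepared with an Illumina TruSeq RNA kit. The authors filtered the reads, and the submitters' processing notes name HISAT2 2.0.5 and hg38. The counting tool, annotation and use of strand were not given in the sources used here. The authors deposited FPKM, 1 value per gene and library, and 0 value columns belonged to no sample. The study called genes with a count-based tool. As the deposited values are FPKM, limma was used here.

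Levels were taken as log2(FPKM + 1). Genes averaging 1 FPKM or more over the libraries were tested with limma 3.58.1 (R 4.3.3, eBayes with trend, no replicate block), with Benjamini-Hochberg adjustment over 13300 genes. Whole reads were recovered from the FPKM with exon lengths of GENCODE release 44, which held 28193 of the 28412 genes, and with lengths searched from 0.5 to 2 times the annotated one. In genes with a single transcript, 92.1% to 92.6% of low values per library lay within 0.05 of a whole read. Intervals of read ratios are exact (Clopper-Pearson, 95%) and cover counting error only. Python 3.11.15 with scipy 1.17.1 was used, and the steps were tested on simulated data.

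The members and lists were chosen with earlier results of these data known. Named were all members, LDB1, the 2 genes with the smallest adjusted p in each direction among the called genes of each further list, other integrin subunits of at least 1 FPKM on average, and defining markers. ITGB4 and ITGAD were added as partner and paralog of members, and other additions are stated beside them. Alternatives covered pseudocount, filter, scaling, block, trend, fold rule and leaving out each library.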

Additional observations from a re-analysis of the deposited data

How the results depend on the processing

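All 6 tested members kept their direction and their side of the threshold wherever they were fitted, with log2 fold changes of 1.43 to 1.62 for ITGA5, 2.48 to 6.71 for ITGAM, 2.72 to 6.42 for ITGAX, 0.44 to 0.64 for ITGB1, 0.40 to 0.60 for ITGAV and -0.55 to -0.35 for ITGB5. The highest limma adjusted p was 0.0216, for ITGAV. The upper ends of ITGAM and ITGAX came with a pseudocount of 0.01, and both had no value with a filter at 5 FPKM. Both passed the main filter only through sh-LDB1, so their kept direction is a description. Depth limits ITGA4, ITGAL, ITGA6 and ITGB2, which rest on at most 68 reads per library.

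Counts over all genes were 1264 higher and 1371 lower. A filter at 5 FPKM gave 710 higher, no fold threshold gave 3983 higher and 4978 lower, and limma treat against a fold of 2 gave 568 higher and 581 lower. Leaving out each library in turn gave 1190 to 1360 higher and 1336 to 1450 lower. Of the members, 1 was higher with the filter at 5 FPKM, and 5 were higher and 1 lower with no fold threshold. For the lists, no fold threshold gave 2 other integrin subunits lower, 5 activation genes higher and 3 lower, 10 adhesion complex genes higher and 8 lower, 2 cell-surface ligands lower, 4 matrix ligands higher and 2 membrane partners lower. Pseudocounts of 0.1 and 0.01 each gave 1 other integrin subunit lower, and 2 activation genes higher and 1 lower. Both scalings gave 2 activation genes higher. The filter at 5 FPKM left 0 adhesion complex genes and 0 cell-surface ligands lower and 0 matrix ligands higher, and limma treat left 0 adhesion complex genes in either direction and 0 cell-surface ligands lower. Leaving out a library gave 1 to 2 activation genes higher (2 without sh-NC replicate 2 or without sh-LDB1 replicate 1), 0 to 2 adhesion complex genes higher, and 2 to 3 matrix ligands higher. Summed over the members only, ITGA5 took 77.5% of alpha transcripts in sh-NC and 78.4% in sh-LDB1, ITGAV 21.6% and 10.996%, and ITGAM with ITGAX 10.2% in sh-LDB1. ITGB1 then took 75.8% and 85.9% of beta transcripts, and ITGB5 13.3% in sh-LDB1.

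No shared deviation of same-numbered libraries was seen, as their deviations correlated at 0.0196 over genes. This value cannot show whether the libraries were prepared in pairs. With the replicate block, 1274 genes were higher and 1386 lower, and no call of a member changed.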
